A study of Mus musculus with 20 samples.

Results

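Bone marrow-derived macrophages from miR-155 knockout mice were compared with wild-type macrophages by small RNA sequencing. The comparison takes the 5 libraries titled as miR-155 k.o. macrophages and the 5 titled as wild-type macrophages, 10 of the 20 libraries of the series. Each genotype has 1 unstimulated library and 1 each with LPS, oxLDL, eLDL and LDL, so that the libraries form 5 pairs by stimulus. The other 10 libraries hold dendritic cells of the same genotypes and stimuli and serve here for contrast. Wild-type mice were C57BL/6 and knockout mice were mir-155-/- of the line B6.Cg-Mir155tm1.1Rsky/J, in which the gene is lost in every cell, and both were killed at 8 to 12 weeks of age. Macrophages were grown from flushed marrow with M-CSF hybridoma supernatant and dendritic cells with GM-CSF hybridoma supernatant. The labels give the lipoproteins by these abbreviations and, for macrophages, no dose or time of any stimulus. Whether a genotype's libraries came from separate mice or cultures is not given in the sources used here. Genotype therefore cannot be told apart from mouse or culture, and the p-values measure only the spread between these libraries.

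MicroRNAs (miRNAs) are short RNAs that an Argonaute protein uses to find partly complementary messenger RNAs, which are then repressed. Pairing rests mainly on the seed, bases 2 to 8 of the miRNA, so miRNAs with 1 seed form a family with overlapping targets. A hairpin precursor gives a 5p arm and a 3p arm, and hairpins that lie close together are often cut from 1 transcript. miR-155 is made from a noncoding host gene that is induced by inflammatory signals in macrophages, and it is known for repressing negative regulators of cytokine and Toll-like receptor signalling. Levels are given in counts per 1e6 miRNA reads (CPM), and each set of 5 values follows the order unstimulated, LPS, oxLDL, eLDL, LDL.

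The macrophage libraries held 13.5 to 22.8 M (1e6) reads, of which 6.44 to 11.8 M, or 42.3 to 53.3%, were miRNA reads. At this depth a count of 0 allows up to 0.255 to 0.466 CPM, which covers counting error only. Of 1114 miRNA arms detected in macrophages, 376 were tested, those that reached 5 CPM in 2 or more of the 20 libraries. Of 6 miRNAs listed as typical of macrophages and myeloid cells, all but miR-155-5p were at 452 CPM or more in every macrophage library. Among them miR-223-3p was called lower and miR-146a-5p higher in the knockout, as described below. miR-142a-5p, made in blood cells, was at 18341, 24064, 25659, 25940 and 25239 CPM in wild-type and 25040, 29129, 29943, 29377 and 26537 CPM in knockout macrophages. The erythroid miR-451a was at no more than 1.95 CPM in any macrophage library, and miR-486-5p of the same list was at 413 to 722 CPM. The stromal miR-145a-3p was at 0 in all of them and miR-145a-5p at no more than 1.95 CPM. The stromal miR-143-3p reached 267 CPM in wild type and 23.6 CPM in the knockout, as described below with the rest of its list. Cell numbers were not measured, so fewer cells of a type and less of a miRNA per cell cannot be told apart.

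The sequences below are those on which the comparisons turn, from RefSeq on GRCm38.p6 and written 5′ to 3′ with the seed in capitals. The first set shows the deleted miRNA, both arms in capitals within its hairpin at chr16:84714140-84714204 on the plus strand, and then its 5p arm with the seed marked.
Mir155 hairpin: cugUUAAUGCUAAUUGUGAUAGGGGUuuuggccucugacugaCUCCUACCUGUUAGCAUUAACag
miR-155-5p: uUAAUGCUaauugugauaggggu
The second set shows the miRNAs that were lower in knockout macrophages, beside the closest relatives of their families. miR-99b-5p, let-7e-5p and miR-125a-5p lie within 1 cluster on chromosome 17 and carry 3 different seeds.
miR-99b-5p: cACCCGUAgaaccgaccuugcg
miR-99a-5p: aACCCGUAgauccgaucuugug
let-7e-5p: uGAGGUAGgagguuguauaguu
let-7a-5p: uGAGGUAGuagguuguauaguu
miR-98-5p: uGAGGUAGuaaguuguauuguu
miR-125a-5p: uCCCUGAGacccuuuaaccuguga
miR-125b-5p: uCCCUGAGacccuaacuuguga
miR-10a-5p: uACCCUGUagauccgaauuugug
miR-10b-5p: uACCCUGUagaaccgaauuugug
miR-210-3p: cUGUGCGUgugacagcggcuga
miR-196b-5p: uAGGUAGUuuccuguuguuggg
miR-200b-3p: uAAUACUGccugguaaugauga
miR-429-3p: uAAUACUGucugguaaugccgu
miR-200c-3p: uAAUACUGccggguaaugaugga
The third set shows miRNAs that were higher, again beside relatives with the same seed.
miR-181d-5p: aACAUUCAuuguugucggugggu
miR-181c-5p: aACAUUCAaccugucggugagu
miR-181b-5p: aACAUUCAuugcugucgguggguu
miR-181a-5p: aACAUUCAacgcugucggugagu
miR-30a-5p: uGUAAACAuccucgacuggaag
miR-30e-5p: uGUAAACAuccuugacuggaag
miR-676-3p: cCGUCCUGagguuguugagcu
miR-9-5p: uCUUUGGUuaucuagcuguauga
miR-34a-5p: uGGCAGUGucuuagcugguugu
miR-146a-5p: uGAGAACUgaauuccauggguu
miR-146b-5p: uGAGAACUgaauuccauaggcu
The last pair moved in opposite directions and is shown as its commonest tag in the deposited files.
miR-101a-3p: gUACAGUAcugugauaacugaa
miR-101b-3p: gUACAGUAcugugauagcugaa
Counted from 1 at the 5′ end, let-7e-5p differs from let-7a-5p by G9U, miR-10a-5p from miR-10b-5p by U12A, miR-181d-5p from miR-181b-5p by U12C and miR-30a-5p from miR-30e-5p by C13U. The tags of miR-101a-3p and miR-101b-3p differ by A17G. In each token the base of the first-named miRNA comes first. Reads were matched without mismatch, so a sequencing error at such a position would move a read to the relative. How far this happened was not tested.

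The targeted miRNA followed the labels in every library. miR-155-5p was at 5349, 39831, 33147, 27239 and 26727 CPM in the 5 wild-type libraries and at 3.93, 4.21, 5.89, 4.86 and 4.78 CPM in the 5 knockout libraries. Wild-type levels were lowest without stimulus and highest with LPS, and made up 0.535 to 3.98% of miRNA reads. The knockout libraries held 183 such reads in all, 33 to 45 each, against 1128715 in wild type. These 183 reads fell on 10 distinct tags, of which the commonest took 58.5%, close to its 56.7% of the wild-type reads. miR-155-3p, the other arm, was at 32.01, 221, 160.5, 146 and 185 CPM in wild type and at 0 in every knockout library. Against a limit of 3 counts over the 5 knockout libraries together, 0.0769 CPM, the 3p arm was at least 1937-fold lower.

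Beyond miR-155, the knockout macrophages had less of the miRNAs clustered with let-7e (miR-99b, let-7e and miR-125a), of the hypoxia-inducible miR-210 and of the Hox-cluster miRNAs miR-10a and miR-196b. They had more of the miR-181c/181d cluster, of miR-30a, and of the low-abundance miR-676, miR-383 and miR-187. By edgeR's quasi-likelihood test with Benjamini-Hochberg adjustment at 0.05, 88 of the 376 tested miRNAs were called, 23.4% of them. Of these, 41 were higher in the knockout, 10.9% of those tested, and 47 were lower, 12.5% of those tested. Both arms of miR-155 are among the 47. The change was over 2-fold in 39 called miRNAs, 10.4% of those tested, 23 lower and 16 higher. In 81 of the 88 the change had the same sign in all 5 pairs. The test takes its spread from the departure of the pairs from a common effect. Called miRNAs are thus partly chosen for such agreement, and this count is no separate support for them. The ranges of the genotypes did not overlap in 48 of the tested miRNAs, 12.8%, and 40 of these 48 were among the called. In 25 the knockout lay above wild type, 6.65% of those tested, and in 23 below, 6.12%.

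The split between higher and lower calls depended on the scaling. TMM, the trimmed mean scaling of the fit, gave 46.6% of calls as higher and put the median log2 change of all tested miRNAs at 0.007. Upper-quartile scaling called 104 higher and 34 lower, 75.4% higher, with a median over all tested miRNAs of 0.255. Total miRNA reads called 63 higher and 42 lower, 60.0% higher, with a median of 0.114. No called miRNA changed sign under either scaling, so directions below hold relative to these medians. All fold changes are log2 of knockout over wild type, with the standard error.

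**Figure D1:**
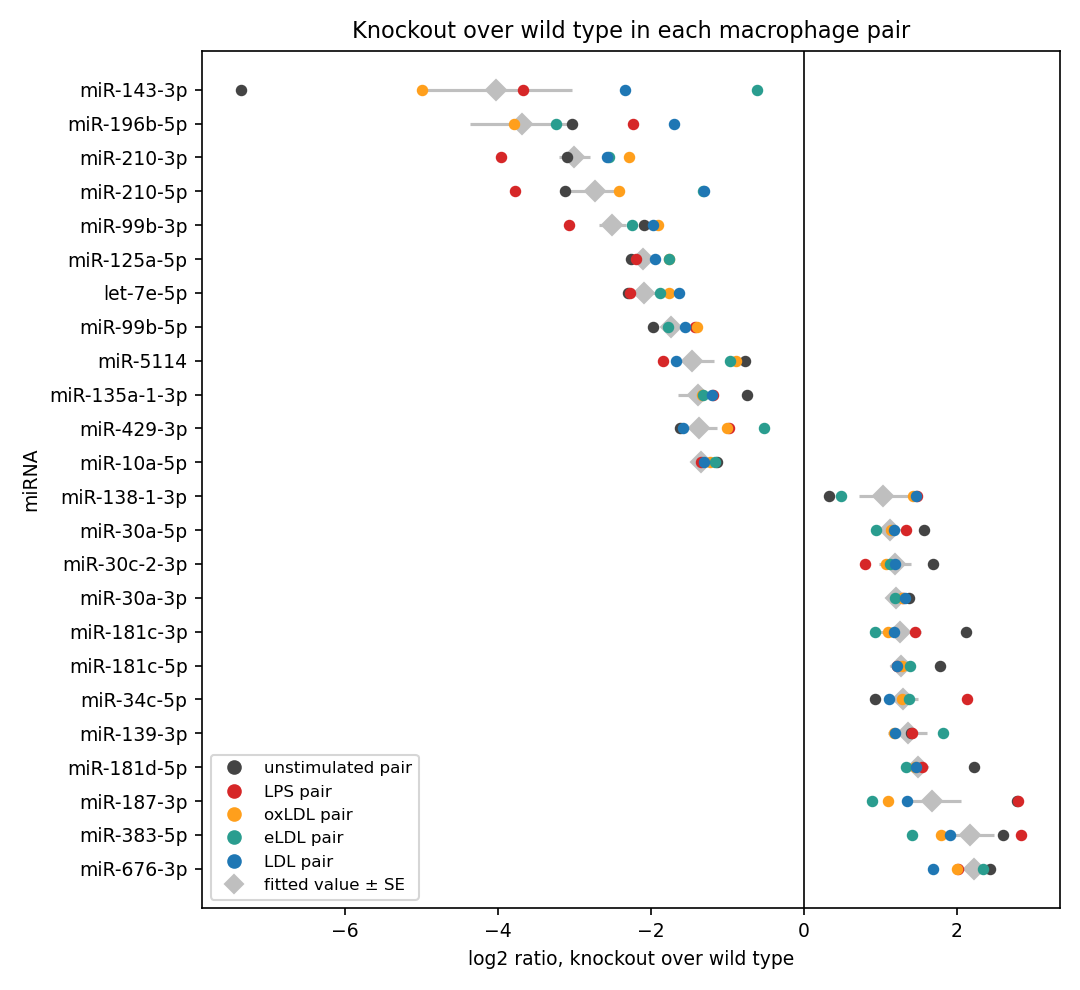
Log2 ratio of knockout over wild type for the 12 lower and 12 higher miRNAs with the largest called changes among those that averaged 50 or more macrophage counts and had 1 direction in all 5 pairs (miR-155 left out); each coloured point is 1 stimulus pair in CPM with a pseudocount of 1, and each grey diamond is the fitted value with its standard error. All points of the 12 upper miRNAs lie left of 0 and all points of the 12 lower ones right of 0, which the choice of these miRNAs required; miR-143-3p has the widest spread.

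The cluster of Mir99b, Mirlet7e and Mir125a lies on chr17:17830188-17830879 (GRCm38, plus strand) within Spaca6, with Mir99b and Mirlet7e in an intron and Mir125a in an exon of that gene. let-7e is a member of the large let-7 family of differentiation-associated miRNAs, and miR-125a is known in macrophages and blood stem cells. miR-99b-5p was at 8693, 4043, 4031, 5371 and 4056 CPM in wild-type and 2215, 1503, 1531, 1561 and 1378 CPM in knockout macrophages. let-7e-5p was at 1399, 642, 526, 496 and 500.1 CPM and 284, 132, 154.8, 134 and 160 CPM, and miR-125a-5p at 1363, 793, 660.4, 568 and 721 CPM and 284, 173, 193, 166 and 186 CPM, in the same order of genotypes. All 3 were highest without stimulus in both genotypes, and every knockout value lay below every wild-type value. The log2 changes were -1.73 ± 0.10 for miR-99b-5p (adjusted p = 2.3e-09, edgeR), -2.08 ± 0.13 for let-7e-5p (adjusted p = 5.6e-09) and -2.10 ± 0.13 for miR-125a-5p (adjusted p = 5.5e-09). The opposite arms fell too. miR-99b-3p changed by -2.50 ± 0.18, miR-125a-3p by -2.22 ± 0.17 and let-7e-3p by -3.97 ± 0.70, the last on 81 reads in wild type and 5 in the knockout. All 5 came from the unstimulated library, and without that library or its wild-type partner the fitted value of let-7e-3p lay near -6.9, which is no bound because the other knockout libraries were at 0. Thus 6 of 6 tested arms of the cluster fell, beside 12.5% of all tested miRNAs. Their median log2 change was -2.16 under TMM, -1.93 under upper-quartile scaling and -2.06 under total reads. Each of the 6 calls held when any 1 of the 10 macrophage libraries was left out.

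The same cluster was more abundant in dendritic cells and was not called there. miR-99b-5p was at 22704 to 40080 (median 27158) CPM in wild-type and 21002 to 31082 (median 25753) CPM in knockout dendritic cells. Their ranges overlapped, and both lay above all macrophage values. The change in dendritic cells was -0.06 ± 0.09 for miR-99b-5p, 0.11 ± 0.13 for let-7e-5p and -0.06 ± 0.13 for miR-125a-5p. The difference of the knockout effect between the cell types, tested as an interaction, was -1.67 ± 0.13 for miR-99b-5p (adjusted p = 2.3e-07), -2.20 ± 0.18 for let-7e-5p and -2.04 ± 0.18 for miR-125a-5p. All 6 arms were called for this difference, beside 15.4% of the tested miRNAs. The cluster was chosen for its fall in macrophages, which enters the difference, so this count is no separate support.

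**Figure D2:**
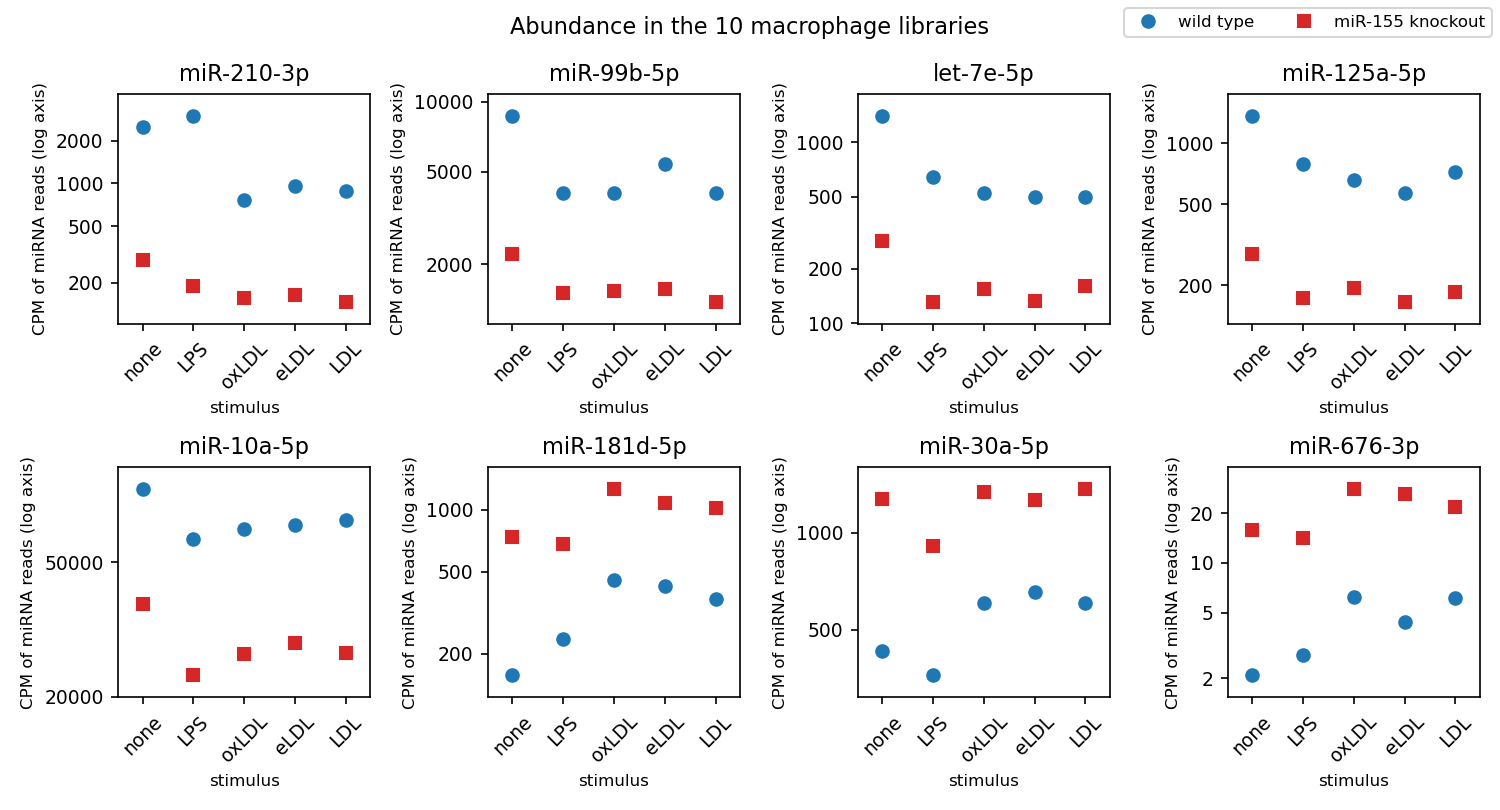
CPM of miRNA reads (log axis, its range set for each panel) of 8 miRNAs in the 10 macrophage libraries by stimulus; blue circles are wild-type and red squares knockout libraries, 1 library per point. The red points lie below all blue points for miR-210-3p, miR-99b-5p, let-7e-5p, miR-125a-5p and miR-10a-5p, and above them for miR-181d-5p, miR-30a-5p and miR-676-3p.

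miR-210, known as a target of the hypoxia-inducible factor HIF1A and as a regulator of mitochondrial iron-sulfur cluster assembly, had the largest called fall among miRNAs above 100 CPM in every wild-type library, miR-155-5p aside. miR-210-3p was at 2513, 2988, 768, 963 and 887 CPM in wild-type and 292, 191, 157, 164 and 148 CPM in knockout macrophages. The unstimulated and LPS wild-type libraries were the highest, and no knockout library reached the lowest wild-type value. Its log2 change was -3.003 ± 0.20 (adjusted p = 7.9e-08), and in the 3 lipoprotein pairs alone it was -2.60. miR-210-5p, the minor arm, was at 39.1, 148, 14.8, 16.8 and 22.2 CPM and 3.61, 9.81, 1.96, 6.11 and 8.4 CPM and changed by -2.73 ± 0.34 (adjusted p = 3.4e-05). In dendritic cells miR-210-3p was at 426 to 1038 (median 561) CPM in wild type and 399 to 1229 (median 443) CPM in the knockout, a log2 change of -0.04 ± 0.18. The difference between cell types was -2.96 ± 0.27 (adjusted p = 3.3e-06). The hairpin lies at chr7:141221384-141221493 on the minus strand, in no gene of that strand in GENCODE M21.

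miR-10a-5p was the most abundant called miRNA that fell, at 4.78% of macrophage miRNA reads on average. Mir10a lies in the Hoxb cluster at chr11:96317165-96317274, plus strand, and its product is known in blood cell differentiation. Wild-type libraries held 82187, 58722, 62851, 64544 and 66654 CPM and knockout libraries 37510, 23170, 26833, 28887 and 27035 CPM. The highest knockout value was below the lowest wild-type value, and the 5 pairs lay close together. Its log2 change was -1.34 ± 0.08 (adjusted p = 5.5e-09), and that of the minor arm miR-10a-3p was -1.31 ± 0.27 (adjusted p = 0.0018). In dendritic cells miR-10a-5p was at 38097 to 62926 (median 46547) CPM in wild type and 38320 to 50011 (median 46818) CPM in the knockout. The difference between cell types was -1.39 ± 0.12 (adjusted p = 2.6e-07).

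A second miRNA from a Hox cluster, miR-196b-5p, was much rarer. Its hairpin overlaps an exon of Hoxa9 on chr6:52230081-52230165, minus strand. It was at 13.2, 12.04, 20.1, 11.03 and 13.1 CPM in wild-type and 0.743, 1.78, 0.523, 0.278 and 3.33 CPM in knockout macrophages. Its log2 change was -3.69 ± 0.68 (adjusted p = 0.0012), with no overlap between the genotypes. miR-10b-5p, from the Hoxd cluster, was at 247, 188, 164, 119 and 113 CPM and 29.6, 211, 126, 137 and 114 CPM, with overlapping ranges and no call (-0.62 ± 0.47). The grouping of these miRNAs by Hox cluster was made after their values were seen.

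Several miRNAs that are known as markers of other cell types were also lower, and part of them at low levels. miR-143-3p, typical of smooth muscle and stromal cells, was at 267, 107, 119, 36.5 and 24.4 CPM in wild-type and 0.637, 7.52, 2.75, 23.6 and 4.05 CPM in knockout macrophages. The pairs differed widely, from a large gap without stimulus to a small one with eLDL. Its log2 change was -4.02 ± 0.98 (adjusted p = 0.016), and the call was lost without the LPS library of either genotype or the oxLDL knockout library. The fitted change ranged from -3.13 without the unstimulated knockout library to -4.96 without the eLDL knockout library, and leaving out their wild-type partners moved it nearly as far. In the lipoprotein pairs alone it was -2.80 and not called (adjusted p = 0.061). In dendritic cells its change was -4.09 ± 0.91, with no called difference between the cell types. Besides miR-10a-5p, the stromal list summed to 26.2 to 284.8 CPM (median 115.7) in wild-type and 1.17 to 26.7 CPM (median 5.36) in knockout macrophages, and miR-143-3p held most of that. Of the 9 listed stromal miRNAs 3 were tested and 2 fell, miR-143-3p and miR-10a-5p, beside 12.5% of all tested miRNAs. The third tested member, miR-199a-3p, was lower in 4 of 5 pairs and was not called (-1.62 ± 0.63). miR-145a-5p was at 0.155 to 1.95 CPM in wild type and 0 to 0.834 CPM in the knockout. At most, miR-199a-5p reached 2.78 and 0.255 CPM, miR-196a-5p 2.23 and 0.579 CPM and miR-214-3p 0.835 and 0 CPM, wild type first. These levels were near the counting limit. miR-145a-3p was at 0 and miR-199b-5p was not detected. The part of such cells in these results was not tested.

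The endothelial miR-126a was low in both genotypes. miR-126a-3p was at 8.91, 6.52, 6.57, 3.88 and 7.89 CPM and 5.52, 0.765, 2.35, 1.53 and 4.2 CPM, with overlapping ranges, and changed by -1.504 ± 0.40 (adjusted p = 0.011). Its 5p arm changed by -1.30 ± 0.40, a call that held in 4 of the 10 fits that left out a library. With miR-10b-5p, the endothelial list summed to 126.2 to 264.2 CPM in wild type and 39.0 to 214.3 CPM in the knockout. The granulocyte and mast cell list summed to 2017 to 3380 CPM in wild type and 1568 to 2480 CPM in the knockout, and 2 of its 3 members fell, both arms of miR-223, beside the same 12.5%. miR-223, a miRNA of granulocytes and monocytes that restrains neutrophil activation, was at 2584, 1400, 2481, 2764 and 2056 CPM and 1917, 803, 1581, 1545 and 1476 CPM for its 3p arm, a log2 change of -0.75 ± 0.08 (adjusted p = 1.9e-06).

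Among miRNAs typical of epithelia, members of 1 seed family moved in opposite directions. miR-200b-3p was at 72.5, 80.6, 71.3, 66.4 and 67.1 CPM in wild type and 42.4, 36.1, 37.9, 33.3 and 35.04 CPM in the knockout, without overlap. It changed by -1.06 ± 0.12 (adjusted p = 3.8e-06), and by -1.12 ± 0.12 in dendritic cells. Its cluster neighbours on chr4:156053905-156055750, minus strand, fell as well, miR-429-3p by -1.36 ± 0.23 and miR-200a-3p by -0.80 ± 0.12. miR-200c-3p, from the second cluster of the family on chromosome 6, was at 43.3, 57.4, 53.8, 54.7 and 45.8 CPM and 55.1, 82.2, 85.2, 73.5 and 70.9 CPM and changed by 0.41 ± 0.14 (adjusted p = 0.049), a call that was lost whichever library was left out. miR-141-3p, the cluster neighbour of miR-200c-3p, was at 29.4 to 51.0 CPM in wild type and 52.2 to 62.4 CPM in the knockout, without overlap. It changed by 0.35 and was not called, while upper-quartile scaling called both arms of that cluster higher. miR-203-3p changed by 0.53 and was not called. The epithelial list of 7 summed to 208.2 to 274.3 CPM in wild type and 191.4 to 238.8 CPM in the knockout.

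Other falls were smaller and concerned miRNAs with known roles in macrophages. miR-511 lies in an intron of Mrc1, the mannose receptor gene of alternatively activated macrophages. miR-511-3p was at 84.8, 47.2, 45.05, 48.3 and 51.9 CPM in wild type and 50.9, 30.5, 28.5, 27.1 and 24.8 CPM in the knockout, a log2 change of -0.89 ± 0.11, and its 5p arm changed by -0.93 ± 0.13. miR-147-3p, induced through Toll-like receptors, was at 709, 1898, 850, 940.1 and 938 CPM and 433, 1158, 563, 590 and 561 CPM, highest with LPS in both genotypes, and changed by -0.79 ± 0.15 (adjusted p = 0.0012). miR-222-3p, which targets the cell cycle inhibitor p27, changed by -0.79 ± 0.15, and miR-378a-3p, encoded in an intron of Ppargc1b, by -0.76 ± 0.11. Reads of miR-378c, called at -0.44 ± 0.10, can be shared with the near-identical miR-378a-3p, so its call is uncertain. miR-21a-3p, the minor arm of miR-21a, was at 1873, 2821, 918, 1185 and 993 CPM and 1380, 987, 765, 701 and 671 CPM, and its gap was widest with LPS. Its log2 change was -0.81 ± 0.19 (adjusted p = 0.0057), a call that upper-quartile scaling did not keep. The main arm miR-21a-5p, at 14.1% of miRNA reads, changed by -0.15 ± 0.12 and was not called (adjusted p = 0.43).

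3 further miRNAs were lower, of which miR-5114 and miR-135a-1-3p were rare. miR-5114, which overlaps an exon of Scd2, a fatty acid desaturase gene, was at 18.1, 20.4, 10.6, 14.8 and 16.5 CPM and 10.2, 4.97, 5.23, 7.09 and 4.49 CPM and changed by -1.46 ± 0.28 (adjusted p = 0.00092). miR-135a-1-3p changed by -1.39 ± 0.25 and was at 0 in all dendritic cell libraries. miR-582-3p, from an intron of the phosphodiesterase gene Pde4d, went opposite ways in the cell types. In macrophages it was at 334, 431, 542, 436 and 425 CPM in wild type and 219.6, 198, 225, 213 and 198 CPM in the knockout, a log2 change of -1.13 ± 0.11. In dendritic cells it was at 10.7 to 32.04 (median 28.02) CPM in wild type and 61.8 to 233 (median 166) CPM in the knockout, a change of 2.77 ± 0.12. Neither pair of ranges overlapped, and the difference between the cell types was -3.90 ± 0.17 (adjusted p = 5.9e-11). miR-582-3p was singled out after its values were seen.

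The miR-181c/181d cluster, at chr8:84178716-84178961 on the minus strand in an intron of Nanos3, was higher in knockout macrophages. The miR-181 family is known for tuning receptor signalling in lymphocytes and for roles in myeloid cells. miR-181d-5p was at 158, 235, 458, 427 and 368 CPM in wild type and 739, 686, 1257, 1081 and 1018 CPM in the knockout. miR-181c-5p was at 139, 334, 369.6, 359 and 359 CPM and 479, 778, 899.7, 938 and 839 CPM. Wild-type levels of both were lowest without stimulus, and every knockout value lay above every wild-type value. The log2 changes were 1.498 ± 0.12 for miR-181d-5p (adjusted p = 6.4e-08), 1.27 ± 0.14 for miR-181c-5p (adjusted p = 2.7e-06) and 1.25 ± 0.28 for miR-181c-3p (adjusted p = 0.0059). All 3 tested arms of the cluster rose, beside 10.9% of all tested miRNAs. All 3 were called for the difference from dendritic cells, beside 15.4%, and the cluster was rare there. The cluster was chosen for its rise, which enters that difference, so these counts are no separate support. miR-181d-5p was at 8.26 to 17.04 (median 13.6) CPM in wild-type and 8.15 to 18.6 (median 12.7) CPM in knockout dendritic cells.

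The relatives with the same seed were far more abundant. miR-181a-5p was at 55554, 64560, 67448, 81510 and 73875 CPM and 73887, 90964, 89790, 91634 and 94510 CPM and changed by 0.26 ± 0.08 (adjusted p = 0.03), a call that held in 2 of the 10 fits that left out a library. miR-181b-5p, which differs from miR-181d-5p by the 1 base given above, changed by -0.07 ± 0.09 and was not called (adjusted p = 0.67). The summed level of the 4 members with the seed ACAUUCA was 67120 to 93210 CPM in wild type and 86760 to 105900 CPM in the knockout. The lymphoid list, to which miR-181c-5p belongs, summed to 202.8 to 527.2 CPM in wild type and 577.0 to 1092 CPM in the knockout, while its defining member miR-150-5p changed by 0.14 ± 0.19 and was not called.

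miR-30a rose on both arms. The miR-30 family is widely expressed and is known to act on autophagy and epithelial state. miR-30a-5p was at 429.8, 360.5, 605, 656 and 606 CPM in wild-type and 1279, 913, 1338, 1266 and 1368 CPM in knockout macrophages, and miR-30a-3p at 38.97, 33.99, 54.8, 60.9 and 53.99 CPM and 103, 85.1, 134, 140.3 and 137 CPM. The genotypes did not overlap for either arm, and the LPS library was the lowest of each genotype for the 5p arm. The log2 changes were 1.13 ± 0.12 (adjusted p = 1.6e-06) for the 5p arm and 1.20 ± 0.11 (adjusted p = 2e-07) for the 3p arm. miR-30c-2-3p, from the neighbouring hairpin on chromosome 1, changed by 1.19 ± 0.21. Of the 5 miRNAs with the seed GUAAACA, miR-30a-5p alone was called under TMM, and upper-quartile scaling called 2. In dendritic cells both arms of miR-30a rose less, by 0.46 ± 0.12 and 0.50 ± 0.10, and the differences between cell types were 0.67 ± 0.16 and 0.70 ± 0.15.

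The largest rises were in rare miRNAs. miR-676-3p, from an intron of the X-linked gene Eda, was at 2.09, 2.76, 6.22, 4.35 and 6.11 CPM in wild type and 15.7, 14.1, 27.9, 26.1 and 21.9 CPM in the knockout. It changed by 2.22 ± 0.23 (adjusted p = 1.3e-06), and its 5p arm by 1.87 ± 0.62. In dendritic cells miR-676-3p changed by 0.10 ± 0.21, a difference between cell types of 2.13 ± 0.31 (adjusted p = 0.00012). miR-383-5p, from an intron of Sgcz, was at 1.25, 3.26, 10.1, 11.96 and 9.51 CPM and 12.7, 29.4, 37.5, 33.5 and 38.4 CPM and changed by 2.18 ± 0.31 (adjusted p = 0.00025). The genotypes did not overlap for either miRNA, and wild-type levels were lowest without stimulus. miR-187-3p, reported to limit cytokine production in monocytes, was at 13.9, 21.1, 82.2, 100.2 and 67.7 CPM and 102, 153, 177, 187 and 173 CPM and changed by 1.68 ± 0.38 (adjusted p = 0.0092). In the lipoprotein pairs alone its change was 0.99. miR-383-5p and miR-187-3p were near or at 0 in dendritic cells.

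4 further miRNAs completed the larger rises. miR-139-3p, from an intron of Pde2a, changed by 1.36 ± 0.25 without overlap, while its 5p arm changed by 0.33 ± 0.13 and was not called (adjusted p = 0.078). miR-34c-5p, of the p53-responsive miR-34 family, was at 19.8, 8.53, 22.2, 20.2 and 23.0 CPM in wild type and 38.4, 40.6, 55.3, 54.1 and 50.8 CPM in the knockout, a log2 change of 1.30 ± 0.20 (adjusted p = 0.0001). It went the other way in dendritic cells, by -0.86 ± 0.20, and the difference was 2.16 ± 0.28 (adjusted p = 3.5e-05). Its relative miR-34a-5p changed by 0.60 ± 0.11 in macrophages. miR-138-1-3p changed by 1.04 ± 0.32 on levels under 20 CPM, a call that held in 3 of the 10 fits that left out a library, and the other arm miR-138-5p by 0.92 ± 0.22. The rise of miR-99a-3p, with the largest fitted value of all, rests on 1 read in wild type and 18 in the knockout. It ranged from 2.54 without an LPS library to 4.65 without the eLDL wild-type library.

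Of the 10 most abundant macrophage miRNAs 3 were called, miR-10a-5p, miR-191-5p and miR-181a-5p, beside 23.4% of all tested miRNAs. miR-146b-5p, a brake on Toll-like receptor signalling, took 25.3% of miRNA reads on average. It was at 235550, 231730, 259050, 266560 and 252080 CPM in wild type and 267490, 248280, 252270, 255820 and 262250 CPM in the knockout. Its ranges overlapped and it changed by -0.06 ± 0.09 (adjusted p = 0.73). In dendritic cells, where it was rarer, it changed by 0.98 ± 0.09, a difference of -1.04 ± 0.12 (adjusted p = 1.6e-05). miR-191-5p changed by 0.42 ± 0.10 (adjusted p = 0.006) and miR-181a-5p as given above. The other 7 were not called, with let-7f-5p at 0.33 ± 0.13, let-7a-5p at 0.09 ± 0.14, miR-142a-5p at 0.13 ± 0.10, miR-22-3p at -0.13 ± 0.08 and miR-92a-3p at -0.07 ± 0.13. miR-21a-5p and miR-146b-5p complete the 7. miR-455-3p was at 3.62, 69.4, 42.6, 48.3 and 47.03 CPM and 22.5, 91.6, 55.3, 55.7 and 63.6 CPM, lowest without stimulus in both genotypes. It changed by 0.60 ± 0.42 and was not called (adjusted p = 0.38), nor was miR-455-5p at 0.39 ± 0.44 (adjusted p = 0.64).

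Lists of miRNAs with known roles were read by their counts. Of 23 tested inflammation-induced miRNAs, 7 fell and 5 rose, and the median log2 change was -0.07 against 0.007 over all tested miRNAs, of which 12.5% fell and 10.9% rose. The 7 include both arms of miR-155, whose fall the deletion fixed and which therefore say nothing about the list. They are also counted in the 12.5%. The rest of the 7 are both arms of miR-147, miR-21a-3p, miR-222-3p and miR-210-3p. The 5 that rose are miR-146a-5p, both arms of miR-9, miR-187-3p and miR-34a-5p. miR-146a-5p, which targets TRAF6 and IRAK1 in a feedback on NF-κB, was at 452, 1407, 899, 1032 and 830.1 CPM in wild type and 1049, 1482, 1714, 1610 and 1588 CPM in the knockout. Its gap was widest without stimulus and nearly closed with LPS, and its log2 change was 0.65 ± 0.12 (adjusted p = 0.00072). miR-9-5p, which targets NFKB1, was at 5080, 6908, 12983, 10761 and 10582 CPM and 15288, 13102, 18422, 17262 and 17725 CPM, without overlap, and changed by 0.78 ± 0.19 (adjusted p = 0.0072). The arms of miR-132 and miR-212, induced by CREB, were not called, at -0.09 ± 0.14 for miR-132-3p and -0.07 ± 0.24 for miR-212-3p.

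Of 16 tested miRNAs of myeloid differentiation, 4 fell, both arms of miR-223, miR-322-3p and miR-125a-5p, and 2 rose, miR-146a-5p and miR-181a-5p, beside the same 12.5% and 10.9% over all tested miRNAs. The call of miR-322-3p held in 2 of the 10 fits that left out a library, and neither upper-quartile nor total-read scaling kept it. Upper-quartile scaling gave 3 lower and 6 higher, and moved the median log2 change of the list from -0.04 to 0.21, beside the shift from 0.007 to 0.255 over all tested miRNAs. Of 15 tested miRNAs of lipid handling, 2 fell, miR-378a-3p and miR-223-3p, and 1 rose, miR-33-5p, counts near those shares. Upper-quartile scaling gave 2 lower and 3 higher. miR-33-5p, encoded in an intron of Srebf2 and known for repressing the cholesterol exporter ABCA1, was at 21.02, 9.78, 16.9, 27.2 and 19.9 CPM and 34.3, 13.6, 33.5, 38.8 and 32.9 CPM and changed by 0.58 ± 0.19 (adjusted p = 0.037), a call that was lost whichever library was left out. The remaining 12 were not called. The liver and serum list had 1 rise of 2, miR-194-5p, and its defining miR-122-5p stayed at or under 4.59 CPM. No member of the erythroid list was called, and its sum was set by miR-486-5p. On chromosome 16, which carries Mir155, 17 other tested arms were encoded on that chromosome alone. Of these, 16 were not called and 1, miR-99a-3p, was called, beside 23.4% of all tested miRNAs. The nearest, miR-125b-2-3p, lies at -7.07 Mb from Mir155, so the region close to the deleted gene was not covered by them.

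Calls were then read by hairpin, by genomic cluster and by seed family. Of 100 hairpins with both arms tested, 18 had both arms called, 14 lower and 4 higher, and none in opposite directions. A further 21 had 1 arm called, and in 14 of these the other arm had the same sign. Of 29 clusters of hairpins within 10 kb, 12 held a call and none held calls in both directions. Of 42 seed families with at least 2 tested members, 21 held a call and 4 held calls in both directions. Each of these 4 families rests on a call that was not firm. The calls of miR-98-5p and miR-200c-3p were lost in most or all fits that left out a library. That of miR-99a-3p rests on very few reads, and upper-quartile scaling did not keep that of miR-101a-3p. Of single tested miRNAs 23.4% were called, and a cluster or family with several tested members has several chances to hold a call. Whether these counts differ from that background was not tested.

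**Figure D3:**
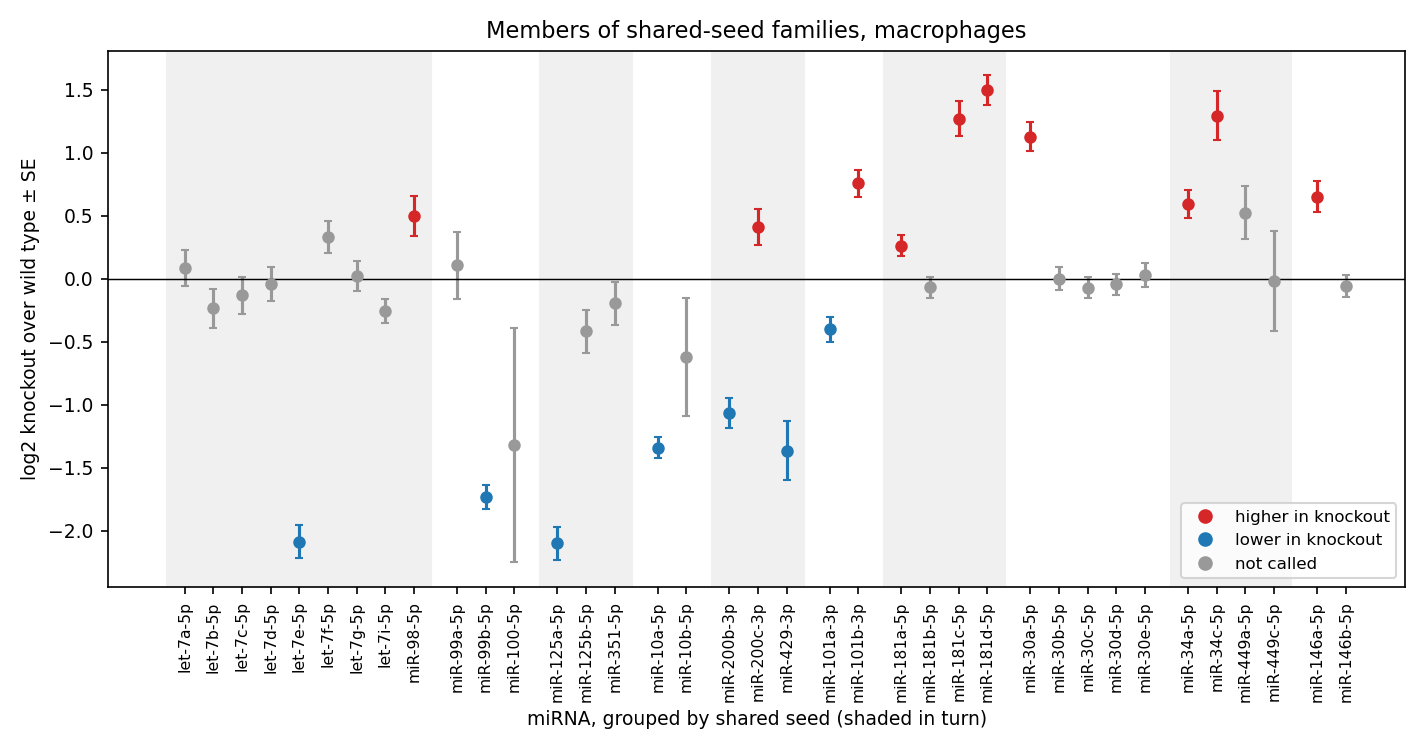
Log2 change of knockout over wild type in macrophages with its standard error for the tested members of 10 seed families, shaded in turn; red marks called higher, blue called lower and grey not called. let-7e-5p lies far below the other let-7 members, and the let-7, miR-101 and miR-200b families hold both blue and red members.

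Within the let-7 family let-7e-5p fell and miR-98-5p rose by 0.50 ± 0.16 (adjusted p = 0.034, called in 2 of the 10 fits that left out a library), and 7 of the 9 members were not called. Upper-quartile and total-read scaling each called 2 members higher. The summed level of the 9 was 104200 to 135600 CPM in wild type and 124000 to 167700 CPM in the knockout, with overlap. By contrast, miR-99b-5p supplied nearly all reads with the seed ACCCGUA, and that sum was 4036 to 8702 CPM in wild type and 1383 to 2219 CPM in the knockout. miR-10a-5p supplied nearly all reads with the seed ACCCUGU. For the seed CCCUGAG, where miR-351-5p was not called at -0.19 ± 0.17, the sum was 969 to 1692 CPM and 494 to 572 CPM, without overlap.

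The miR-101 pair differs at 1 base outside the seed. miR-101a-3p was at 699, 1458, 722, 753 and 779 CPM in wild type and 591, 1259, 578, 599 and 604 CPM in the knockout, lower in 5 of 5 pairs, and changed by -0.40 ± 0.10 (adjusted p = 0.006). Upper-quartile scaling did not keep that call. miR-101b-3p, from an intron of Rcl1, was at 760.5, 1736, 1654, 1706 and 1732 CPM and 1938, 3247, 2725, 2822 and 2689 CPM, without overlap, and changed by 0.76 ± 0.11 (adjusted p = 4.6e-05). The difference between macrophages and dendritic cells was -0.71 ± 0.14 for miR-101a-3p and 0.52 ± 0.15 for miR-101b-3p.

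Across all tested miRNAs, dendritic cells had 32 calls between the genotypes, 8.51% of those tested, 20 higher (5.32%) and 12 lower (3.19%). The difference of the knockout effect between the cell types was called for 58 miRNAs, 15.4%, of which 40 were more negative (10.6%) and 18 more positive (4.79%) in macrophages. That split turned with the scaling, to 25 more negative and 47 more positive under upper-quartile scaling and to 26 and 44 under total reads. Of the 88 miRNAs called in macrophages, 44 were also called for this difference. Called in both cell types with the same sign were 11, among them both arms of miR-155, miR-143-3p, miR-200b-3p, miR-147-5p, both arms of miR-30a and let-7d-3p. With opposite signs there were 4, both arms of miR-582, miR-181c-3p and miR-34c-5p. The 2 cell types share no library, but they share the mouse lines.

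**Figure D4:**
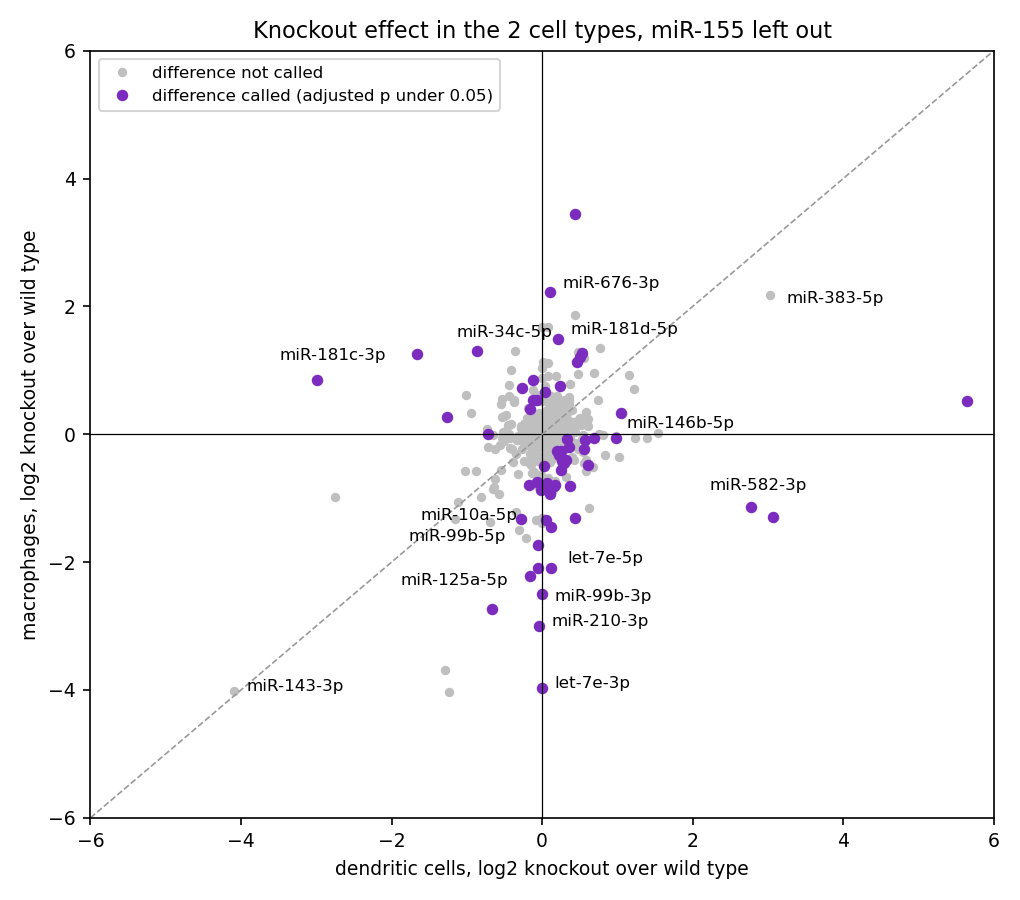
Log2 change of knockout over wild type in macrophages (vertical) against dendritic cells (horizontal) for the 374 tested miRNAs other than miR-155, with the dashed line of equal change; purple points were called for the difference. The arms of the miR-99b cluster and miR-210-3p lie low near the vertical axis, and miR-582-3p lies low on the right.

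Read length and 5′ ends were set side by side for 3 of the called miRNAs. The mean read length of miR-99b-5p ranged over 21.4 to 21.5 nt in wild type and 21.2 to 21.5 nt in the knockout, that of miR-10a-5p over 22.0 to 22.1 nt in wild type and 21.9 to 22.1 nt in the knockout and that of miR-181d-5p over 23.0 to 23.3 nt in wild type and 23.1 to 23.4 nt in the knockout. Reads of miR-10a-5p that began elsewhere than at its commonest 5′ end made up 21.7 to 23.8% in wild type and 23.6 to 25.2% in the knockout.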

How the data were processed

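Per the labels' protocols, total RNA was extracted with Trizol and made into Illumina TruSeq small RNA libraries, 20 in all. The deposited files pair every sequence tag with its raw read count. The submitters' processing notes name CASAVA 1.8.2, and the trimming tool is not given in the sources used here.

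Tags of 18 to 26 nt that matched 1 or more of 1174 miRNA hairpins exactly were counted. Hairpins came from GENCODE M21 (GRCm38), and starts had to lie within 2 nt of the commonest 5′ end of an arm. Arms were set by RefSeq mature sequences or, without one, by the loop predicted by RNAfold 2.7.2. Tags that fitted several arms were divided equally among them, and arms with identical sequence formed 1 feature. Tested were the 376 features that reached 5 CPM in 2 or more libraries, which hold at least 99.963% of the miRNA reads of each library. Reads were not collapsed by molecular identifiers.

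edgeR 4.0.16 (R 4.3.3) fitted the TMM-scaled counts in 1 robust quasi-likelihood fit of all 20 libraries with cell type by genotype and stimulus within cell type. This leaves 8 residual degrees of freedom, and each single library is assumed to vary like the others. The genotype contrast in macrophages, and its difference from that in dendritic cells, were adjusted by Benjamini-Hochberg over all 376 and called at 0.05. Standard errors were obtained as log2 change over the root of the F statistic. Ratios of single pairs use a pseudocount of 1 CPM. The fit was also run on simulated counts with the library sizes, 1 mean per miRNA over all libraries and the trend of spread of these data. These counts held no effect of cell type or stimulus, so the run cannot check the calls made here.

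Named are both arms of miR-155 and miR-455, up to 12 miRNAs each way with the largest called change among those averaging 50 or more macrophage counts with 1 direction in all 5 pairs, the other arms of those hairpins, the 10 most abundant, and members of the lists, clusters within 10 kb, seed families and chromosome 16. miR-582-3p and the Hox grouping were chosen after their values were seen. Members and lists were chosen with earlier results of these data known. Alternatives were other scalings, DESeq2 1.42.0, other filters and match rules, macrophages alone, and fits without single libraries or pairs. Of 35 mature miRNA sequences sought, 32 were in the RefSeq table (GRCm38.p6). The Mir155 hairpin was taken from it as well.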

Additional observations from a re-analysis of the deposited data

Results flagged for a closer look

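Among the log2 ratios of the 5 stimulus pairs, 8 of the 56 named miRNAs had 1 pair whose gap to the nearest other pair, as a share of the range, passed Dixon's 95% critical value. Chance passes it in about 1 in 20 groups of independent values, and these miRNAs share libraries and were partly chosen for their change. The unstimulated pair stood apart for miR-155-5p at -10.08 and miR-155-3p at -5.04, where the wild-type level was lowest. It also stood apart for miR-135a-1-3p at -0.74, let-7f-1-3p at -1.61, miR-455-3p at 2.35 and miR-181d-5p at 2.22. The LPS pair stood apart for miR-181a-1-3p at 0.05 and miR-92a-1-5p at 1.8.

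The knockout effect differed between the cell types, by edgeR's interaction test, for 22 named miRNAs, given as macrophages minus dendritic cells on the log2 scale. The cluster on chromosome 17 gave -1.67 for miR-99b-5p, -2.5 for miR-99b-3p, -2.2 for let-7e-5p, -3.97 for let-7e-3p, -2.04 for miR-125a-5p and -2.06 for miR-125a-3p. miR-210-3p gave -2.96, miR-210-5p -2.07, miR-10a-5p -1.39, miR-10a-3p -1.75 and miR-5114 -1.57. miR-21a-3p gave -1.18, miR-181a-1-3p -0.51, miR-146b-5p -1.04 and miR-139-5p -0.71. On the other side, miR-181c-3p gave 2.92, miR-34c-5p 2.16, miR-676-3p 2.13, miR-181d-5p 1.29, miR-181c-5p 0.74, miR-30a-3p 0.7 and miR-30a-5p 0.67. For miR-146b-5p and miR-139-5p the change was called in dendritic cells and not in macrophages.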

How the results depend on the processing

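No named call reversed under the 24 alternatives run, and reversal across all of these was scored for named miRNAs only. Many were named for a large change with 1 direction in all 5 pairs. Leaving out libraries or pairs could thus hardly reverse them, and this count is no separate support. Of 34 named and called macrophage miRNAs, 25 kept the call under every alternative, and 746 of 801 alternative values kept both direction and call. The other 55 lost the call, mostly for miR-138-1-3p, miR-181a-5p, miR-676-5p and miR-143-3p. Of 520 alternative values of the 22 named miRNAs that were not called, 30 became called and 64 changed sign while uncalled. Of 414 values of the 22 called differences between cell types, 13 lost the call. Upper-quartile scaling gave 138 calls, 104 of them higher, and total reads gave 63 higher. A fit of macrophages without the stimulus term gave 53 calls, 23 higher and 30 lower, and the lipoprotein pairs alone gave 25 higher. The cause was not tested. Differences more positive in macrophages numbered 47 under upper-quartile scaling, 44 under total reads and 46 with a filter of 50 CPM, which tested fewer miRNAs, and those more negative numbered 25, 26 and 22. With single libraries left out, calls ranged from 74 to 82, higher from 30 to 36 and lower from 42 to 49. Differences then ranged from 44 to 59, more positive from 14 to 19 and more negative from 28 to 40. DESeq2 called 53 higher and 53 lower and shared all 88. At an unadjusted p under 0.05 there were 124. Pairing by replicate number was not tried, since the labels give none. The reported fit pairs libraries by stimulus, and the same fit of the macrophage libraries alone, with 4 residual degrees of freedom, shared 82 of the 88 calls. With 1 library per condition, the response of a genotype to 1 stimulus has no replicate check.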

Other observations

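Further called miRNAs outside the groups above also moved on both arms of a hairpin. They were chosen after their values were seen. miR-151, from an intron of the focal adhesion kinase gene Ptk2, rose. miR-151-5p was at 294, 549, 677, 569 and 626 CPM in wild-type and 689, 944, 999, 1055 and 1017 CPM in knockout macrophages, without overlap, and changed by 0.73 ± 0.10 (adjusted p = 3.7e-05, edgeR), while miR-151-3p changed by 0.53 ± 0.12. In dendritic cells miR-151-5p changed by -0.26 ± 0.10, a difference between cell types of 0.99 ± 0.14 (adjusted p = 9.9e-05). miR-574, from an intron of Fam114a1, fell by -1.33 ± 0.21 on its 3p arm and -0.82 ± 0.15 on its 5p arm. miR-339 fell by -0.49 ± 0.11 and -0.57 ± 0.15, 5p arm first. miR-326, from an intron of the beta-arrestin gene Arrb1, had 1 wide gap. miR-326-5p was at 145, 406, 162, 164 and 119 CPM and 133, 114, 149, 109.8 and 96.6 CPM, and the LPS library of wild type stood above all others. Upper-quartile scaling did not keep the calls of miR-339 and miR-326.

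let-7d-3p and miR-365-3p rose without overlap. let-7d-3p was at 607, 536, 765, 409 and 718 CPM in wild type and 1129, 1067, 1255, 1414 and 1412 CPM in the knockout and changed by 0.96 ± 0.17 (adjusted p = 0.00072). The main arm let-7d-5p changed by -0.04 ± 0.13 and was not called. miR-184-3p was at 221, 129, 95.8, 109 and 107 CPM and 220.1, 224, 295, 262 and 253 CPM, nearly equal without stimulus and higher in the knockout in the other 4 pairs, and changed by 0.88 ± 0.21 (adjusted p = 0.007). miR-672-5p was higher in the knockout in 4 of 5 pairs, the LPS pair being the exception.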
